A study of Homo sapiens with 12 samples.

Results

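The 33 genes described here encode lysosomal proteins: 17 hydrolases and hydrolase cofactors, progranulin, 7 membrane proteins and channels, 5 parts of the proton pump and 3 transcription factors of the TFEB family. They were found by symbol among the 58051 genes of 1 count table, and cathepsins were left out of the list. All 33 were present, and all 33 were among the 17119 genes with enough counts to be tested. Together they held 1.91% to 2.19% of the counts in each library.

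The series measured poly(A) RNA of THP-1, a human monocytic leukaemia line that takes on macrophage features when treated with the phorbol ester PMA. All 4 groups were treated with PMA at 20 ng/ml for 24 h, after which the medium was replaced, and IFN-γ was added on the next day where it was used. The sources used here give neither its dose nor how long it was left on. The 4 groups were cells in which the heparan sulphate proteoglycan gene SDC3 (syndecan-3) had been knocked out with CRISPR/Cas9, with added recombinant human IFN-γ (KO with IFN-γ), the same knockout cells without it (KO without IFN-γ), wild-type cells with IFN-γ (WT with IFN-γ) and wild-type cells without it (WT without IFN-γ). Each group had 3 libraries, numbered 1 to 3. The study asked how syndecan-3 bears on the inflammatory functions of macrophages. How many edited clones stood behind the knockout is not given in the sources used here, and neither do they say whether replicate libraries stem from different cultures. The tests therefore speak only of the variation among the libraries, which may be technical.

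Lysosomes break down lipids, glycans, glycogen and proteins with soluble enzymes that work at acid pH, and the V-ATPase proton pump in the lysosomal membrane makes that pH. Heavily glycosylated membrane proteins such as the LAMPs line the inner face, and channels such as TRPML1 release ions from the lumen. Many lysosomal genes carry an E-box called the CLEAR element in their promoters, which TFEB, TFE3 and MITF bind, and macrophages depend on lysosomes to digest what they engulf.

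Levels are given as CPM, the usual depth-normalised count, after TMM scaling of the library totals, and fold changes are log2 values with their standard error (SE) from edgeR's quasi-likelihood test, adjusted by the Benjamini-Hochberg method over all genes tested. A value given after "higher by" or "rose by", or in brackets with an SE, is a log2 fold change. A gene is said to be higher, lower, to rise or to fall where the adjusted p was under 0.05. The libraries held 23616738 to 29426415 counts, at which a floor of 3 counts equalled 0.102 to 0.127 CPM before TMM scaling. Mates of a read pair were counted separately, so 1 fragment can give 2 counts. Of the small counts above 0 in each library, 70.4% to 73.3% were even. SDC3 itself was lower in the knockout and not absent (-1.28, SE 0.06, adjusted p = 3.4e-18 with IFN-γ, and -2.28, SE 0.06, adjusted p = 9.2e-24 without), at 237, 237 and 244 CPM in KO with IFN-γ, 49.9, 48.1 and 43.9 CPM in KO without, 578, 590 and 571 CPM in WT with IFN-γ and 196, 252 and 241 CPM in WT without. The IFN-γ target IRF1 ran from 1191 to 1444 CPM in the 6 libraries with IFN-γ and from 41.1 to 70.0 CPM in the 6 without. All 10 macrophage markers were detected, at a summed 4874 to 5119 CPM in KO with IFN-γ, 3549 to 3765 in KO without, 5230.4 to 5470 in WT with IFN-γ and 3527 to 3770.3 in WT without, while all 4 T-cell markers were under 1 CPM in every library. Single markers differed between the genotypes, and 6 of the 10 macrophage markers were lower and 1 higher in the knockout with IFN-γ, and 6 lower and 2 higher without. The lower ones included MSR1 (-1.16, SE 0.07, with IFN-γ and -2.68, SE 0.09, without), MRC1 (-1.85 and -1.99, SE 0.10 each) and CD163 (-1.26, SE 0.08, and -1.54, SE 0.09). Their part in the members' differences was not tested. Summed levels of 7 monoblast and granule markers were 95.7 to 109 CPM in KO with IFN-γ, 327 to 352 in KO without, 45.3 to 46.3 in WT with IFN-γ and 211 to 225 in WT without. Of these markers, 4 were higher and 2 lower in the knockout with IFN-γ, and 5 higher and 2 lower without. The part of these markers in the differences below was not tested. In bulk RNA, a lower share of cells of a given state and less RNA per cell cannot be told apart.

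Promoter sequence was available for 23 of the 33 genes, as 250 bases before and 50 bases after the RefSeq transcription start (GRCh38.p14). The stretches shown are those that hold the E-box core of the CLEAR element, CACGTG, in capitals with 12 bases on each side, because the TFEB family acts through it. Stretches end at base 10 after the start, which leaves fewer bases after the last motif of LAMP1 and CLN3. They are 5′ to 3′ on the gene's own strand.
LAMP1, chr13:113297035-113297248, plus strand: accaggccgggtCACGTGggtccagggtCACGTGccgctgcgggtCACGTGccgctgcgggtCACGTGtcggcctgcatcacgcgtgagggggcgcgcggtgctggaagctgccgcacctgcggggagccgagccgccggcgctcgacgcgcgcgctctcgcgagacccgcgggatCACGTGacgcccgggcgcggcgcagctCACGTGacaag
MCOLN1, chr19:7522571-7522627, plus strand: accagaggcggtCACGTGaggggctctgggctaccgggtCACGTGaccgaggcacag
GAA, chr17:80101493-80101567, plus strand: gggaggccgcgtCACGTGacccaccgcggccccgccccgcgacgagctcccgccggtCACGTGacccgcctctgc
CLN3, chr16:28492065-28492116, minus strand: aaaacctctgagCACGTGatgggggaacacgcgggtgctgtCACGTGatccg
ATP6V0D1, chr16:67481199-67481228, minus strand: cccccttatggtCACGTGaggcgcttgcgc
CD63, chr12:55729172-55729201, minus strand: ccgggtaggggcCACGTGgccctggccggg

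The E-box core stood in 6 of the 23 promoters (26.1%), against 7.26% of all 35116 RefSeq promoters of this length and 9.84% of the 11561 promoters of tested genes. Lysosomal genes are known for this element, so a higher share could be foreseen from the choice of genes and says nothing of the libraries. LAMP1 held 6 copies, MCOLN1, GAA and CLN3 held 2 each, and ATP6V0D1 and CD63 held 1. The longer TCACGTGA, which contains the core, stood in 5 of the 23 (21.7%), all of the above but CD63, against 0.98% of all promoters and 1.88% of those of tested genes. The window for CLN3 lies 3501 bases, and that for CD63 698 bases, from the gene start in the count table, so for these genes it is not at that start. Among windows without the core, that of GM2A lies 41035 bases from that start. Those of ARSB (777), TFEB (651), GALC (483), PPT1 (451) and GLB1 (408) are also away from it, so a motif at that start would have been missed. Both strands were searched, and each motif reads the same on either strand.

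Motifs that interferon-activated factors can bind were searched in the same windows. The motif TTCNNNGAA (GAS, for gamma-activated site), which also reads the same on both strands, stood in 2 of 23 promoters (8.7%), near its share of 7.66% of all promoters and 6.40% of those of tested genes. The ISRE core GAAANNGAA, searched on both strands, stood in 0 of 23, against 8.11% and 6.69%. For GM2A and the other genes named above, the windows did not cover the gene start in the count table. The 2 genes with a GAS are shown because FUCA1 had the highest fold change of the members between the genotypes and ARSB rose with IFN-γ. The motif is in capitals, and the ARSB window lies 777 bases from the gene start in the count table.
FUCA1, chr1:23868475-23868507, minus strand: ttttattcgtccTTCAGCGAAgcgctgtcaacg
ARSB, chr5:78985468-78985500, minus strand: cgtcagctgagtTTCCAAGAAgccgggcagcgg

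Most of these lysosomal transcripts stood somewhat higher in SDC3-knockout cells than in wild-type cells in both treatments, led by the glycan hydrolases FUCA1 and MANBA, while the membrane proteins LAMP1 and CD63 and the transcription factor MITF stood lower. With IFN-γ, 21 of 33 members were higher in the knockout, 5 were lower and 7 were not called. In that comparison 47.2% of all genes tested were called, 22.9% higher and 24.3% lower. Without IFN-γ, 21 were higher, 6 were lower and 6 were not called, where 50.1% of all genes were called, 25.4% higher and 24.8% lower. The share of all calls that were higher was 48.6% with IFN-γ and became 35.6% when library totals were used without scaling factors.

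Abundant genes are called more often, and most members were abundant. Among genes averaging at least 20 CPM, a level chosen after the data were seen, 63.3% were called with IFN-γ (36.9% higher, 26.4% lower), against 24 of 29 members (19 higher, 5 lower). Without IFN-γ 66.1% of such genes were called (36.7% higher), against 24 of 29 members (20 higher, 4 lower). The differences were small in size. The median log2 fold change over the members was 0.27 with IFN-γ and 0.16 without, where all genes had medians of -0.01 and 0.01. The median size, leaving out the sign, was 0.28 with IFN-γ and 0.25 without, against 0.28 for all genes in either treatment. Only 4 members with IFN-γ and 7 without were called and changed more than 1.5-fold, where 17.4% and 18.3% of all genes were. The groups did not overlap for 27 members with IFN-γ and 24 without, as was the case for 54.3% and 56.0% of all genes.

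The comparisons with and without IFN-γ use separate libraries, and 19 members were higher in the knockout in both, while 3 (LAMP1, CD63 and MITF) were lower in both. Of these, 15 higher and 3 lower members kept the call under every scaling tried. GLB1, HEXA and CLN3 were called in neither treatment in the main fit (TMM scaling, all 12 libraries), and some alternatives called HEXA or GLB1 lower with IFN-γ.

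**Figure D1:**
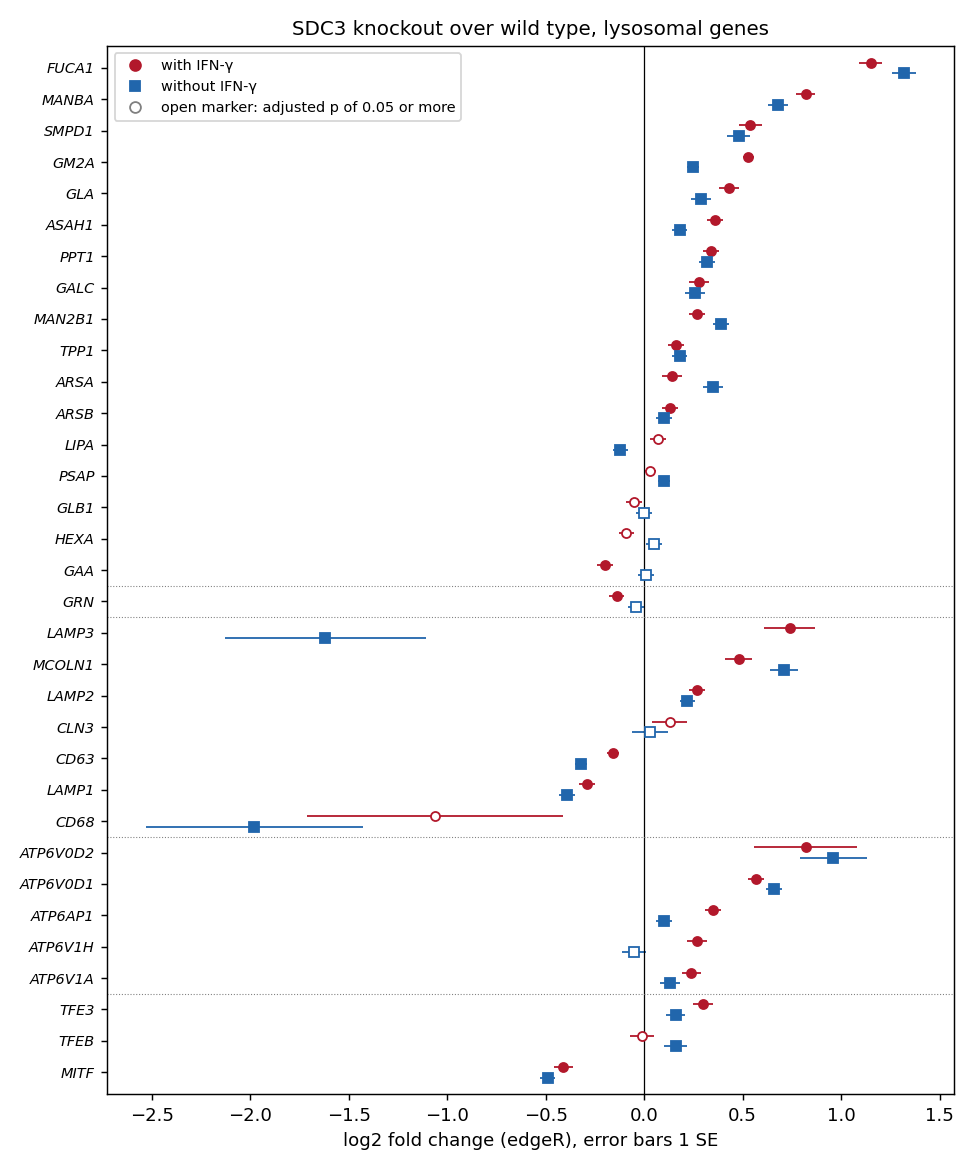
Log2 fold change (x axis) of the 33 lysosomal genes (y axis) in SDC3-knockout over wild-type cells, with IFN-γ (red circles) and without (blue squares), with bars of 1 SE, filled where the adjusted p was under 0.05. Dotted lines part hydrolases and cofactors, progranulin, membrane proteins, proton pump parts and TFEB-family factors. FUCA1 (1.15 and 1.32) and MANBA (0.82 and 0.68) lie farthest to the right among the hydrolases, LAMP1 (-0.29 and -0.39) and MITF (-0.41 and -0.49) lie left of 0, and the wide bars of LAMP3 and CD68 go with very few counts.

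Of the 17 hydrolases and cofactors, 12 were higher and 1 lower in the knockout with IFN-γ, and 13 were higher and 1 lower without it. FUCA1 (chr1:23845077-23868294, minus strand), which encodes the fucosidase that removes fucose from glycoproteins and glycolipids, had 493, 509 and 471 CPM in KO with IFN-γ and 218, 224 and 224 CPM in WT with IFN-γ. Without IFN-γ it had 757, 718 and 759 CPM in the knockout and 352, 262 and 281 CPM in the wild type. In either treatment every knockout library was higher than every wild-type library. FUCA1 was 2.21-fold higher with IFN-γ (1.15, SE 0.06, adjusted p = 2.7e-16) and 2.50-fold higher without (1.32, SE 0.06, adjusted p = 4.2e-18), by edgeR's quasi-likelihood test.

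MANBA (chr4:102631488-102760994, minus strand) encodes β-mannosidase, an exoglycosidase of N-glycan breakdown. It had 256, 262 and 251 CPM in KO with IFN-γ, against 140, 145 and 149 CPM in WT with IFN-γ. Without IFN-γ it had 219.9, 201 and 223 CPM in KO, against 143, 127 and 131 CPM in WT. The genotypes were apart in both treatments, by 1.77-fold with IFN-γ (0.82, SE 0.05, adjusted p = 1.7e-15) and 1.61-fold without (0.68, SE 0.05, adjusted p = 1.0e-13). MAN2B1, the α-mannosidase of the same pathway, was 1.21-fold higher with IFN-γ (0.27, SE 0.04, adjusted p = 5.6e-07) and 1.31-fold higher without (0.39, SE 0.04, adjusted p = 3.9e-10), again with no overlap.

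Several enzymes of sphingolipid breakdown were also higher in the knockout. SMPD1, the acid sphingomyelinase, had 71.3, 73.3 and 66.8 CPM in KO with IFN-γ against 48.3, 52.9 and 43.7 CPM in WT with IFN-γ, and 56.4, 55.6 and 56.5 CPM in KO without IFN-γ against 37.7, 41.1 and 41.8 CPM in WT without. It was 1.46-fold and 1.39-fold higher (adjusted p = 6.7e-09 with IFN-γ and 7.1e-08 without, edgeR), and the genotypes did not overlap. GLA, the α-galactosidase that acts on globotriaosylceramide, was higher by 0.43 with IFN-γ (SE 0.05, adjusted p = 1.3e-08) and by 0.29 without (SE 0.05, adjusted p = 5.7e-06). ASAH1, the acid ceramidase, was higher by 0.36 with IFN-γ (SE 0.04, adjusted p = 4.5e-09) and by 0.18 without (SE 0.04, adjusted p = 1.9e-04). GALC, which cleaves galactosylceramide, was higher by 0.28 and 0.26 (SE 0.05 each), and ARSA, the sulphatase of sulphatide, by 0.14 with IFN-γ (SE 0.05, adjusted p = 0.021) and 0.35 without (SE 0.05, adjusted p = 7.0e-07). The call of ARSA with IFN-γ was lost with library totals alone (adjusted p = 0.34) and without KO with IFN-γ library 1 (0.14) or WT with IFN-γ library 3 (0.097).

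The GM2 activator GM2A, a small protein that lifts gangliosides out of the membrane for β-hexosaminidase, had 1195, 1201 and 1171 CPM in KO with IFN-γ and 804, 824 and 836 CPM in WT with IFN-γ. Without IFN-γ it had 627, 622 and 644 CPM in the knockout and 541, 518 and 529 CPM in the wild type. All knockout libraries were above the wild-type libraries of the same treatment, and the distance was wider with IFN-γ (0.53, SE 0.03, adjusted p = 1.7e-14) than without (0.25, SE 0.03, adjusted p = 1.8e-07), as the test of that difference below shows. HEXA, the enzyme's α subunit, was not called in either treatment (-0.09 with IFN-γ, adjusted p = 0.073, and 0.05 without, adjusted p = 0.32). With IFN-γ it was called lower with upper-quartile scaling (-0.11, adjusted p = 0.028) and library totals alone (-0.17, 6.8e-04). It was also called lower where at least 5 CPM in 3 libraries was required (-0.11, 0.021) and without WT with IFN-γ library 1 (-0.11, 0.045). PSAP, whose product is cut into the saposins that help sphingolipid hydrolases, had 4413, 4460.4 and 4366 CPM in KO with IFN-γ and 4325, 4257 and 4399 CPM in WT with IFN-γ, which overlapped (0.03, SE 0.03, adjusted p = 0.46). Without IFN-γ PSAP was higher by 0.10 (SE 0.03, adjusted p = 0.0081), and the call was lost with library totals alone, with the compared libraries fitted alone and without KO without IFN-γ library 1 (0.061, 0.053 and 0.062).

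Among the enzymes that act on other substrates, PPT1, which removes palmitate from proteins, had 4549, 4764 and 4517 CPM in KO with IFN-γ and 3597, 3554 and 3809.7 CPM in WT with IFN-γ, and 5047, 4808 and 5001 CPM in KO without IFN-γ against 4303, 3679.8 and 3901 CPM in WT without. The genotypes were apart in both treatments (0.34 and 0.32, SE 0.04 each, adjusted p = 1.8e-08 with IFN-γ and 3.7e-08 without). TPP1, a tripeptidyl peptidase, was higher by 0.16 and 0.18 (SE 0.04 each). ARSB, the sulphatase that acts on dermatan and chondroitin sulphate, was higher by 0.13 with IFN-γ (SE 0.04, adjusted p = 0.0048) and by 0.10 without (SE 0.04, adjusted p = 0.030). With library totals alone ARSB was not called in either treatment (adjusted p = 0.27 with IFN-γ and 0.15 without). Without IFN-γ its call was also lost with RLE scaling (0.054), upper-quartile scaling (0.065), no low-count filter (0.11) and the compared libraries fitted alone (0.11). The same held when KO library 1, KO library 3 or WT library 3 was left out (0.069, 0.096 and 0.11).

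Some hydrolases did not follow the others. GAA, the acid α-glucosidase that breaks down glycogen, was lower in the knockout with IFN-γ, at 446, 421 and 412 CPM in KO and 500.2, 495 and 471 CPM in WT (-0.20, SE 0.04, adjusted p = 2.9e-04), with no overlap. Without IFN-γ it had 408, 406 and 389 CPM in KO and 369, 421 and 402 CPM in WT, which overlapped (0.01, SE 0.04, adjusted p = 0.83). LIPA, the acid lipase of cholesteryl esters and triglycerides, had 1575, 1636 and 1685 CPM in KO without IFN-γ and 1831, 1662 and 1833 CPM in WT without, and these overlapped although LIPA was called lower (-0.12, SE 0.04, adjusted p = 0.013). The LIPA call was lost without KO without IFN-γ library 1 (adjusted p = 0.082) or WT without IFN-γ library 3 (0.077), and with IFN-γ it was at 0.07 (SE 0.04, adjusted p = 0.17), and at 0.12 (0.01) without WT with IFN-γ library 3. GLB1, the acid β-galactosidase, lay at -0.05 with IFN-γ and 0.00 without (SE 0.04 each, adjusted p = 0.24 and 0.98). With library totals alone it was called lower with IFN-γ (-0.13, adjusted p = 0.0025).

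GRN encodes progranulin, a secreted glycoprotein that is carried to the lysosome and cut into granulins there. It had 1713, 1679.8 and 1611 CPM in KO with IFN-γ and 1889.9, 1839 and 1788 CPM in WT with IFN-γ, with no overlap (-0.14, SE 0.04, adjusted p = 0.0012). Without IFN-γ the genotypes overlapped, with GRN at a mean of 1553 ± 50.8 CPM in KO and 1602 ± 51.3 CPM in WT (SD, n = 3 each; adjusted p = 0.31, edgeR's quasi-likelihood test).

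The membrane proteins went in both directions. LAMP1 (chr13:113297241-113323672, plus strand), a main glycoprotein of the lysosomal membrane, had 541, 519.9 and 512 CPM in KO with IFN-γ and 649.6, 628 and 645 CPM in WT with IFN-γ. Without IFN-γ it had 348, 324 and 336 CPM in KO and 429.6, 439 and 452 CPM in WT. The knockout libraries were below the wild-type libraries in both treatments (-0.29, SE 0.04, adjusted p = 9.2e-08 with IFN-γ, and -0.39, SE 0.04, adjusted p = 2.0e-10 without). LAMP2, its homologue with a part in autophagy, lay the other way, at 451, 454 and 452 CPM in KO with IFN-γ against 369, 358 and 402 CPM in WT with IFN-γ, and at 344, 339.7 and 354 CPM in KO without IFN-γ against 316, 282 and 293 CPM in WT without. LAMP2 was higher by 0.27 (SE 0.04, adjusted p = 4.9e-06) and 0.22 (SE 0.04, adjusted p = 8.0e-05), with no overlap.

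CD63, a tetraspanin of late endosomes and secretory lysosomes, had 1104, 1111 and 1093 CPM in KO with IFN-γ and 1231, 1209.9 and 1265 CPM in WT with IFN-γ. Without IFN-γ it had 717, 691 and 713 CPM in KO and 871, 881 and 893 CPM in WT, so that it was lower in the knockout in both (-0.16, SE 0.03, adjusted p = 1.0e-04, and -0.32, SE 0.03, adjusted p = 1.0e-09). MCOLN1, which encodes the lysosomal cation channel TRPML1, was higher in both. It had 28.2, 30.2 and 27.3 CPM in KO with IFN-γ against 20.3, 22.0 and 19.2 CPM in WT with IFN-γ, and 35.6, 35.2 and 33.2 CPM in KO without IFN-γ against 20.8, 22.6 and 20.1 CPM in WT without. MCOLN1 was 1.39-fold higher with IFN-γ (adjusted p = 2.4e-06, edgeR) and 1.64-fold higher without (adjusted p = 4.5e-10), with no overlap. CLN3, the membrane protein altered in juvenile Batten disease, was at 0.13 (SE 0.09, adjusted p = 0.28) and 0.03 (SE 0.09, adjusted p = 0.83).

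The genes that share the E-box shown above did not share a direction. LAMP1 with 6 copies and CD63 with 1 were lower in the knockout, MCOLN1 with 2 and ATP6V0D1 with 1 were higher, GAA was called lower with IFN-γ and not called without, and CLN3 was called in neither treatment.

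**Figure D2:**
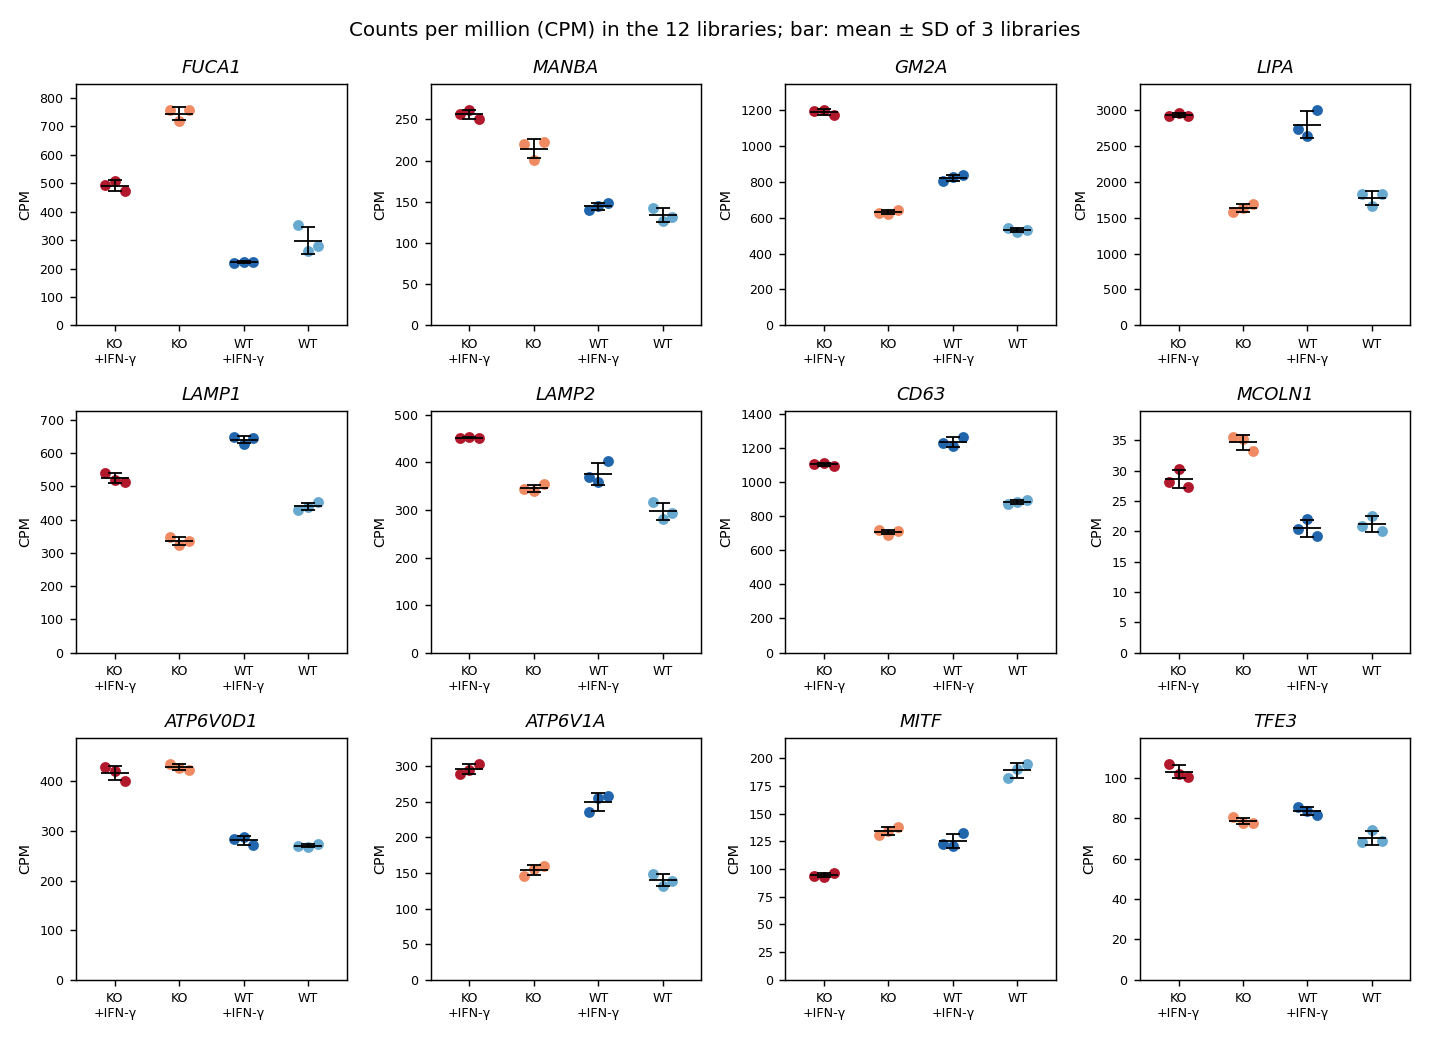
Level in CPM (y axis, from 0) of 12 lysosomal genes in each library, for the knockout and the wild type with and without IFN-γ (x axis), with the mean and SD of 3 libraries as bars. The 3 knockout libraries stand above the 3 wild-type libraries of the same treatment for FUCA1 (471 to 509 against 218 to 224 CPM with IFN-γ), MANBA, GM2A, MCOLN1 and ATP6V0D1, and below them for LAMP1, CD63 and MITF.

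All 5 listed parts of the V-ATPase proton pump were higher in the knockout with IFN-γ, and 4 of 5 without it. ATP6V0D1, the d1 subunit of the membrane sector, which joins it to the stalk, had 429, 419.8 and 401 CPM in KO with IFN-γ against 284, 288 and 271 CPM in WT with IFN-γ, and 435, 426 and 423 CPM in KO without IFN-γ against 269.7, 268 and 273 CPM in WT without. No library of the knockout came near the wild type, and the difference was 1.48-fold (0.57, SE 0.04, adjusted p = 6.4e-14) and 1.58-fold (0.66, SE 0.04, adjusted p = 1.2e-15). Its isoform ATP6V0D2, known from osteoclasts, was low, at 1.98, 1.42 and 1.68 CPM in KO with IFN-γ against 0.881, 0.494 and 1.56 CPM in WT with IFN-γ, which overlapped. Its call with IFN-γ (0.82, SE 0.26, adjusted p = 0.011) was lost without KO with IFN-γ library 1 (adjusted p = 0.058) or WT with IFN-γ library 2 (0.13, log2 fold change 0.49). Without IFN-γ ATP6V0D2 had 7.73, 8.41 and 8.0 CPM in KO and 4.19, 3.82 and 4.39 CPM in WT, with no overlap (0.96, SE 0.17, adjusted p = 1.5e-05). Of 3 osteoclast markers 1 had no counts. Their sum was 15.9 to 17.4 CPM in KO with IFN-γ and 18.5 to 18.7 in KO without. In the wild type it was 35.7 to 37.7 CPM with IFN-γ and 51.4 to 57.1 without, and the sum was not tested. OCSTAMP and DCSTAMP were each lower in the knockout in both treatments, where ATP6V0D2 was higher. With IFN-γ OCSTAMP was lower in the knockout (-1.82, SE 0.2) and the wild type (-1.7, SE 0.13), as ATP6V0D2 was. DCSTAMP was not called in the knockout (0.14, adjusted p = 0.13) or the wild type (-0.1, adjusted p = 0.23).

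ATP6AP1, an accessory subunit, had 450.5, 448 and 436 CPM in KO with IFN-γ and 352, 349 and 345 CPM in WT with IFN-γ (0.35, SE 0.04, adjusted p = 4.4e-09). ATP6V1A, the catalytic A subunit, had 289, 294 and 303 CPM in KO with IFN-γ and 235, 255 and 258 CPM in WT with IFN-γ (0.24, SE 0.05, adjusted p = 4.2e-05). ATP6V1H, a subunit that regulates the cytosolic sector, had 71.0, 73.4 and 72.8 CPM in KO with IFN-γ and 56.6, 59.8 and 63.3 CPM in WT with IFN-γ (0.27, SE 0.05, adjusted p = 1.0e-04). In these 3 genes the knockout libraries all lay above the wild-type libraries with IFN-γ. Without IFN-γ ATP6AP1 (0.10, SE 0.04, adjusted p = 0.030) and ATP6V1A (0.13, SE 0.05, adjusted p = 0.018) were higher, and ATP6V1H was not called (-0.05, SE 0.06, adjusted p = 0.53). The calls of ATP6AP1 and ATP6V1A without IFN-γ were each lost with library totals alone (adjusted p = 0.15 and 0.078) and with the compared libraries fitted alone (0.11 and 0.052). That of ATP6AP1 was also lost with RLE scaling (0.054), upper-quartile scaling (0.061) and no low-count filter (0.068). Leaving out KO library 1 (0.14), KO library 2 (0.051) or WT library 1 (0.16) also ended the call of ATP6AP1, and leaving out KO library 2 (0.062), KO library 3 (0.096), WT library 2 (0.13) or WT library 3 (0.057) that of ATP6V1A.

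Of the TFEB family, MITF, better known from pigment cells and osteoclasts, was lower in the knockout. It had 93.9, 92.6 and 96.2 CPM in KO with IFN-γ against 123, 121 and 133 CPM in WT with IFN-γ, and 130.5, 134 and 138 CPM in KO without IFN-γ against 182, 190.3 and 195 CPM in WT without. MITF stood at 75.2% of its wild-type level with IFN-γ and 71.0% without, with no overlap (-0.41, SE 0.05, adjusted p = 6.4e-09, and -0.49, SE 0.04, adjusted p = 4.8e-11). TFE3 was higher, at 107, 102 and 100.5 CPM in KO with IFN-γ and 85.6, 83.6 and 81.8 CPM in WT with IFN-γ (0.30, SE 0.05, adjusted p = 3.4e-06), and by 0.16 without IFN-γ (SE 0.05, adjusted p = 0.0057). TFEB itself overlapped between the genotypes in both treatments, at -0.01 with IFN-γ (SE 0.06, adjusted p = 0.87) and 0.16 without (SE 0.06, adjusted p = 0.024). The TFEB call without IFN-γ was lost with library totals alone (adjusted p = 0.084) and with the compared libraries fitted alone (0.055). It was also lost without KO library 2 (0.099), WT library 1 (0.17) or WT library 3 (0.076).

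Genes beside the members on the chromosome also differed between the genotypes, and their part in the members' differences was not tested. Of all genes, 24.3% were lower and 22.9% higher in the knockout with IFN-γ, and 24.8% and 25.4% without. Of the 20 tested genes beside LAMP1, 10 on each side, 9 were lower and 1 higher with IFN-γ (median log2 fold change -0.27), and 9 lower and 0 higher without (-0.17). Around CD63, 11 were lower and 2 higher with IFN-γ (median -0.43), and 11 lower and 0 higher without (-0.20). Around MITF 9 were lower and 2 higher with IFN-γ (-0.23), and 8 lower and 1 higher without (-0.20). Around GRN the median was -0.33 with IFN-γ and -0.15 without. Not every member moved with its neighbours. FUCA1 was higher beside neighbours at a median of -0.02 with IFN-γ and -0.13 without, and ATP6V1A was higher beside neighbours at -0.34 and -0.30. Around MCOLN1 13 of 20 were higher and 1 lower without IFN-γ (median 0.37), and 5 higher and 2 lower with it (0.06).

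IFN-γ raised a set of lysosomal transcripts in both genotypes, among them the pump subunit ATP6V1A, the lipid-handling genes GM2A and LIPA, the sulphatase ARSB and the membrane proteins LAMP1 and CD63, and it lowered FUCA1, GLA, MITF and ATP6V0D2. In the knockout 18 of 33 members were higher with IFN-γ, 7 lower and 8 not called, where 61.1% of all genes were called, 29.2% higher and 31.8% lower. In the wild type 21 were higher, 6 lower and 6 not called, where 56.5% of all genes were called, 28.6% higher and 27.9% lower. The median log2 fold change was 0.10 over the members in the knockout and 0.20 in the wild type, where all genes had medians of -0.05 and -0.02. Called changes past 1.5-fold numbered 9 in the knockout and 7 in the wild type, where 32.0% and 27.6% of all genes had them. Groups with and without IFN-γ did not overlap for 28 members in the knockout and 25 in the wild type, as for 66.2% and 60.5% of all genes. Among genes averaging at least 20 CPM, 75.6% were called in the knockout (46.4% higher), against 23 of 29 members (17 higher), and 71.5% in the wild type (44.8% higher), against 25 of 29 members (20 higher).

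These responses depended on how libraries were scaled, because the TMM factors differed with treatment. With library totals alone the median of all genes moved to -0.35 in the knockout and -0.27 in the wild type, and with upper-quartile scaling to -0.17 and -0.13. The share of all calls that were higher was 47.9% in the knockout, against 23.4% with library totals alone and 36.4% with upper-quartile scaling, and 50.7% in the wild type, against 25.1% and 37.5%. With library totals alone 9 members were higher and 17 lower in the knockout, and 8 higher and 14 lower in the wild type. Among the members, 7 were higher in both genotypes under every scaling tried (ATP6V1A, LAMP3, ARSB, GM2A, LIPA, CD63 and LAMP1), and 4 were lower in both (FUCA1, MITF, GLA and ATP6V0D2).

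Among the hydrolases and cofactors, GM2A had 1195, 1201 and 1171 CPM with IFN-γ and 627, 622 and 644 CPM without in the knockout, a 1.88-fold rise (0.91, SE 0.03, adjusted p = 2.2e-21). In the wild type it had 804, 824 and 836 CPM with IFN-γ and 541, 518 and 529 CPM without, a 1.55-fold rise (0.63, SE 0.03, adjusted p = 5.6e-17). With IFN-γ every library was above every library without it in the same genotype. LIPA had 2918, 2949 and 2906 CPM with IFN-γ and 1575, 1636 and 1685 CPM without in the knockout, and 2730.3, 2636 and 3001 CPM with IFN-γ and 1831, 1662 and 1833 CPM without in the wild type. It rose 1.79-fold in the knockout (adjusted p = 2.6e-18, edgeR) and 1.57-fold in the wild type (adjusted p = 2.6e-15), with no overlap.

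ARSB, whose promoter holds the GAS shown above, had 235, 233 and 235 CPM with IFN-γ and 136, 133 and 137 CPM without in the knockout, and 214, 213 and 214 CPM with IFN-γ and 126, 128 and 124 CPM without in the wild type. The libraries of a group lay within a few CPM of each other, and the rise was 1.73-fold in the knockout (0.79, SE 0.04, adjusted p = 3.7e-18) and 1.69-fold in the wild type (0.76, SE 0.04, adjusted p = 1.5e-17). FUCA1, which holds the other GAS, went the other way. It was at 65.9% of its untreated level in the knockout (-0.60, SE 0.06, adjusted p = 1.7e-10) and at 74.4% in the wild type (-0.43, SE 0.06, adjusted p = 3.6e-07), and all libraries with IFN-γ were below those without. GLA fell too (-0.20, SE 0.05, adjusted p = 5.5e-04 in the knockout, and -0.34, SE 0.05, adjusted p = 5.9e-07 in the wild type).

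Smaller rises in both genotypes under TMM scaling were seen in GLB1, SMPD1, ARSA, PSAP, MANBA and TPP1, from 0.09 to 0.45, and with library totals alone each lost its call or turned round in at least 1 genotype. The call of MANBA in the wild type (0.12, adjusted p = 0.036), where its groups overlapped, was also lost in DESeq2 (0.064), with RLE scaling (0.058) and with upper-quartile scaling (0.95). It was lost too without WT with IFN-γ library 2 (0.085) or 3 (0.12) or WT without IFN-γ library 2 (0.17) or 3 (0.12). TPP1 lost its call in the knockout (0.09, adjusted p = 0.035) without either of libraries 1 and 3 with IFN-γ or 2 and 3 without, and in the wild type (0.10, adjusted p = 0.017) without library 3 with IFN-γ or library 2 without. The saposin precursor PSAP, for example, rose by 0.18 in the knockout (SE 0.03, adjusted p = 3.0e-06) and by 0.25 in the wild type (SE 0.03, adjusted p = 1.1e-08), against -0.11 and 0.00 with library totals alone. PPT1 was lower in both (-0.10, SE 0.04, adjusted p = 0.024 in the knockout, and -0.12, SE 0.04, adjusted p = 0.013 in the wild type). Its call in the knockout was lost in RLE scaling (0.053), in DESeq2 (0.091) and without any of 5 of the 6 libraries, and that in the wild type without WT with IFN-γ library 1 (0.058) or 2 (0.065) or WT without IFN-γ library 1 (0.20). GALC was called in neither genotype (0.09, SE 0.05, adjusted p = 0.14 in the knockout, and 0.06, SE 0.05, adjusted p = 0.30 in the wild type). With the compared libraries fitted alone it was called higher in the knockout (0.11, adjusted p = 0.015), and with library totals alone its sign turned. HEXA was called lower in the knockout (-0.17, adjusted p = 6.5e-04), ASAH1 lower in the wild type (-0.19, adjusted p = 7.6e-05), and GAA (0.30, adjusted p = 4.5e-07) and MAN2B1 (0.18, adjusted p = 1.7e-04) higher in the wild type by edgeR's test, and each of these was not called in the other genotype. With library totals alone GAA and MAN2B1 were not called in the wild type (0.05 and -0.07), and HEXA (-0.28) and ASAH1 (-0.32) were then called lower in the other genotype too. Upper-quartile scaling also called HEXA lower in the wild type (-0.14, adjusted p = 0.0033) and ASAH1 lower in the knockout (-0.14, 0.0021). GAA was called higher in the knockout by DESeq2 (0.10, adjusted p = 0.045), with RLE scaling (0.10, 0.04) and with the compared libraries fitted alone (0.11, 0.0064). It was also called there without KO with IFN-γ library 2 (0.12, adjusted p = 0.037) or 3 (0.12, adjusted p = 0.041). MAN2B1 was called higher in the knockout with the compared libraries fitted alone (0.08, 0.027).

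LAMP1 rose in both genotypes, at 541, 519.9 and 512 CPM with IFN-γ and 348, 324 and 336 CPM without in the knockout (0.64, SE 0.04, adjusted p = 4.2e-16), and at 649.6, 628 and 645 CPM with IFN-γ and 429.6, 439 and 452 CPM without in the wild type (0.54, SE 0.04, adjusted p = 3.7e-14). CD63 rose by 0.64 in the knockout (SE 0.03, adjusted p = 1.4e-17) and by 0.49 in the wild type (SE 0.03, adjusted p = 2.2e-14). Neither gene's libraries with IFN-γ overlapped those without. LAMP2 rose by 0.39 (SE 0.04, adjusted p = 2.3e-09) and 0.34 (SE 0.04, adjusted p = 4.3e-08), and was at 0.09 in both genotypes with library totals alone (adjusted p = 0.056 and 0.064). MCOLN1 was lower with IFN-γ in the knockout (-0.28, SE 0.07, adjusted p = 9.0e-04) and was not called in the wild type (-0.04, SE 0.08, adjusted p = 0.64), where library totals alone gave -0.29 (adjusted p = 0.0011).

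LAMP3 (chr3:183122213-183163839, minus strand), also called DC-LAMP for its presence in mature dendritic cells, had the largest response of the 33 genes in either genotype. It had 296, 284 and 384 counts with IFN-γ in the knockout (12.0, 11.6 and 14.7 CPM), against 4, 2 and 2 counts without. In the wild type it had 210, 183 and 174 counts with IFN-γ (8.41, 6.95 and 7.56 CPM), against 7, 8 and 10 counts without. The untreated knockout libraries were at or near the floor of 3 counts, so the fitted rise there (log2 7.09, SE 0.25, adjusted p = 6.4e-22, edgeR) rests on 8 counts in all, and that in the wild type (4.73, SE 0.22, adjusted p = 1.2e-18) on 25. As mates were counted separately, these counts can stand for fewer fragments. With IFN-γ, LAMP3 was 1.67-fold higher in the knockout than in the wild type with no overlap (0.74, SE 0.13, adjusted p = 1.9e-05), and without IFN-γ it was lower (-1.62, SE 0.51, adjusted p = 0.0085). Summed levels of 4 dendritic cell markers were 38.4 to 42.4 CPM in KO with IFN-γ, 76.1 to 80.5 in KO without, 26.5 to 31.0 in WT with IFN-γ and 42.3 to 51.3 in WT without, most of it FLT3. CLEC9A and CCR7 were under 1 CPM in every library. CD1C and FLT3 were lower with IFN-γ in both genotypes, where LAMP3 was higher. In the knockout against the wild type they were higher with IFN-γ, as LAMP3 was (CD1C 1.91, SE 0.18, and FLT3 0.36, SE 0.07), and also without it (1.35, SE 0.16, and 0.72, SE 0.07), where LAMP3 was lower. Their part in the values of LAMP3 was not tested.

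**Figure D3:**
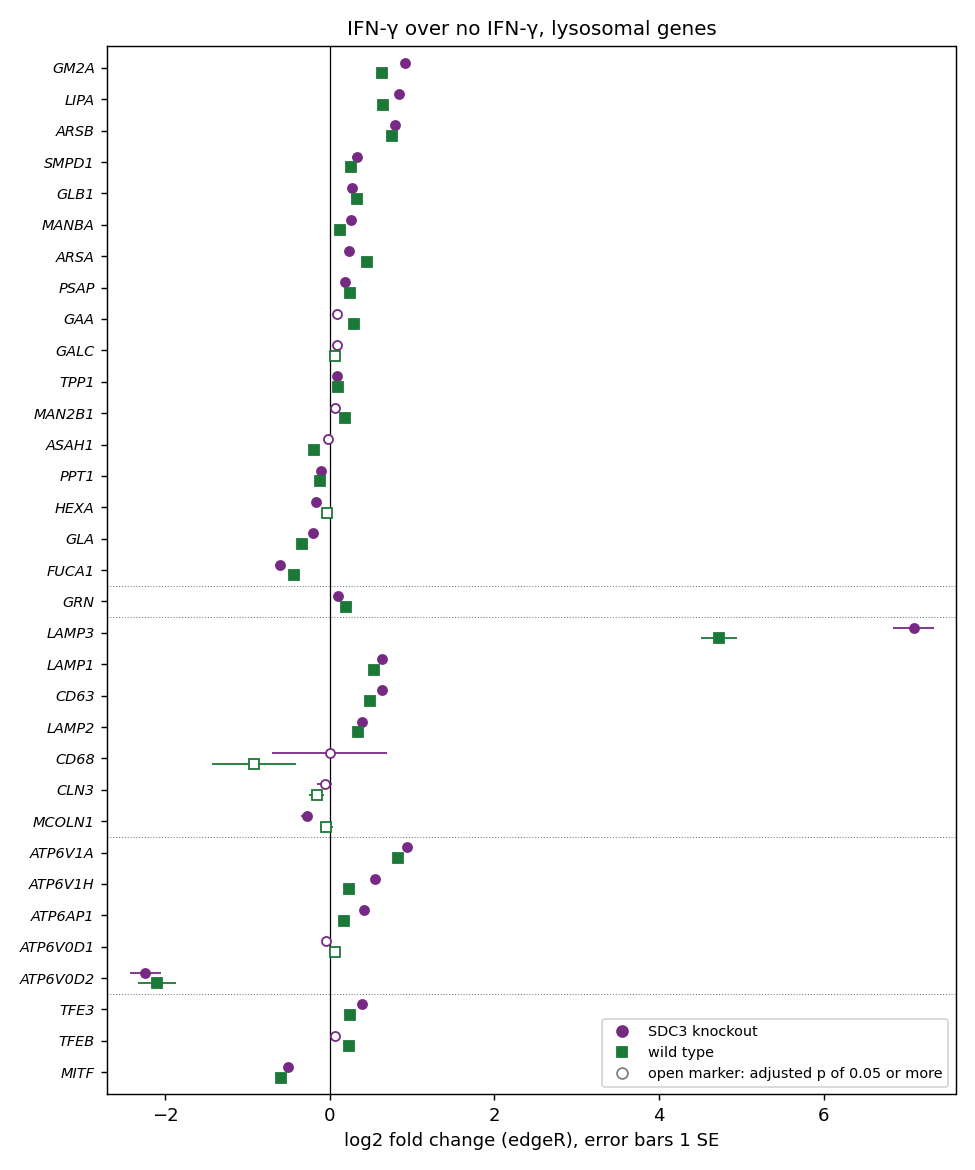
Log2 fold change (x axis) of the 33 lysosomal genes (y axis) with IFN-γ over without it, in SDC3-knockout cells (purple circles) and wild-type cells (green squares), with bars of 1 SE, filled where the adjusted p was under 0.05 after TMM scaling. Dotted lines part the same gene roles as in the plot of the genotypes. LAMP3 (7.09 and 4.73) stands apart from the rest, ATP6V1A, GM2A, LIPA, ARSB, LAMP1 and CD63 lie right of 0 in both genotypes and ATP6V0D2, MITF, FUCA1 and GLA left of it under every scaling tried, while the directions of GLB1, MANBA, TPP1, PSAP, GRN, ARSA, TFEB, GAA, MAN2B1, GALC, ATP6AP1, ATP6V1H and ATP6V0D1 turn in at least 1 genotype with library totals alone.

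In the proton pump, ATP6V1A had 289, 294 and 303 CPM with IFN-γ and 146, 156 and 159 CPM without in the knockout, and 235, 255 and 258 CPM with IFN-γ and 149, 132 and 139 CPM without in the wild type. It rose 1.92-fold (0.94, SE 0.05, adjusted p = 4.1e-18) and 1.78-fold (0.83, SE 0.05, adjusted p = 1.7e-16), with no overlap. ATP6V1H rose by 0.55 in the knockout (SE 0.05, adjusted p = 1.9e-10) and 0.23 in the wild type (SE 0.06, adjusted p = 5.7e-04), and ATP6AP1 by 0.42 (SE 0.04, adjusted p = 3.3e-11) and 0.17 (SE 0.04, adjusted p = 3.5e-04). With library totals alone, both lay at or below 0 in the wild type (-0.02 and -0.08) and were called higher in the knockout. ATP6V0D1 was called in neither genotype (-0.04 and 0.06, SE 0.04 each). ATP6V0D2 fell to 1.98, 1.42 and 1.68 CPM with IFN-γ in the knockout, against 7.73, 8.41 and 8.0 CPM without, and to 0.881, 0.494 and 1.56 CPM in the wild type, against 4.19, 3.82 and 4.39 CPM (-2.24, SE 0.19, adjusted p = 8.3e-12, and -2.10, SE 0.23, adjusted p = 1.8e-09).

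MITF was the TFEB-family member that fell with IFN-γ, to 70.2% of its untreated level in the knockout (-0.51, SE 0.05, adjusted p = 1.8e-11) and to 66.3% in the wild type (-0.59, SE 0.04, adjusted p = 3.7e-13). It was lowest in KO with IFN-γ and highest in WT without, and the groups did not overlap in any comparison. TFE3 rose by 0.39 in the knockout (SE 0.05, adjusted p = 1.4e-08) and 0.25 in the wild type (SE 0.05, adjusted p = 4.3e-05), and with library totals alone was at 0.09 (adjusted p = 0.083) and 0.00 (0.99). TFEB rose by 0.24 in the wild type (SE 0.06, adjusted p = 0.0011), where its groups overlapped, and not in the knockout (0.06, SE 0.06, adjusted p = 0.39). With library totals alone it was at -0.01 in the wild type (adjusted p = 0.85) and at -0.24 in the knockout (0.001). GRN rose by 0.10 in the knockout (SE 0.04, adjusted p = 0.012) and 0.20 in the wild type (SE 0.04, adjusted p = 1.2e-05), and lay at -0.19 and -0.05 with library totals alone. Its call in the knockout was lost without KO with IFN-γ library 1 (0.071) or KO without IFN-γ library 3 (0.079).

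The response to IFN-γ differed between the genotypes for 9 of 33 members, tested as the difference of the log2 responses, knockout minus wild type. Of these 7 were larger and 2 smaller in the knockout, where 15.5% of all genes were called, 7.61% larger and 7.86% smaller. Among genes averaging at least 20 CPM, 24.5% were called (13.6% larger), against 8 of the 29 members at that level (6 larger). The share of all calls that were larger was 49.2%, against 35.0% with library totals alone. GM2A (0.28, SE 0.05, adjusted p = 5.5e-05), ATP6AP1 (0.25, SE 0.05, adjusted p = 0.0013), ATP6V1H (0.32, SE 0.08, adjusted p = 0.0037) and LAMP3 (2.36, SE 0.52, adjusted p = 0.0014) differed under every scaling. LAMP3 rests on the few counts of the untreated groups given above. The smaller difference of GAA (-0.21, adjusted p = 0.015) was lost without KO with IFN-γ library 2 (0.11) or 3 (0.056). That of CD63 (0.15, adjusted p = 0.02) was lost without KO without IFN-γ library 2, WT with IFN-γ library 2 or WT without IFN-γ library 3, and that of LIPA (0.19, adjusted p = 0.02) without KO without IFN-γ library 1, WT with IFN-γ library 1 or 2 or WT without IFN-γ library 3. Those of ASAH1 (0.17, adjusted p = 0.032) and ARSA (-0.21, adjusted p = 0.044) were each lost without any of 8 of the 12 libraries, with adjusted p up to 0.11 and 0.21. FUCA1 was not called (-0.17, adjusted p = 0.18), but without WT without IFN-γ library 1, its highest wild-type library at 352 CPM, the difference was -0.31 (adjusted p = 8.2e-05). TFEB (-0.18, adjusted p = 0.18) was called without WT without IFN-γ library 2 (0.031). The other 24 members had differences from -0.24 (MCOLN1, adjusted p = 0.13) to 0.91 (CD68, on very few counts). None of them passed the test in the main fit. With all 12 libraries kept, FUCA1 passed without the low-count filter (-0.16, adjusted p = 0.049). HEXA passed where at least 5 CPM in 3 libraries was required (-0.16, 0.044). With library totals alone HEXA (-0.19, 0.019), PSAP (-0.11, 0.04), GRN (-0.14, 0.039) and MAN2B1 (-0.17, 0.034) passed.

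Per kilobase of exon, which allows a comparison between genes, the levels spanned several orders of magnitude. PPT1 averaged 1394 CPM per kb in KO with IFN-γ, 1498 in KO without, 1105 in WT with IFN-γ and 1198 in WT without, and PSAP 1363, 1200.4, 1336 and 1124 in the same order of groups. LIPA (332 to 596 CPM per kb over the 4 groups), GRN (422 to 499.7) and CD63 (269 to 469) came next, followed by FUCA1 (108 to 364) and GM2A (118 to 265). PPT1, PSAP and LIPA together held 51.3% to 53.5% of the 33 genes' counts in each library. CLN3 (1.21 to 1.38 CPM per kb), LAMP3, ATP6V0D2 and CD68 were the lowest.

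CD68, the macrophage glycoprotein used as a marker of these cells, had 3, 2 and 5 counts in KO with IFN-γ, 2, 4 and 6 in KO without, 7, 10 and 4 in WT with IFN-γ and 17, 13 and 17 in WT without. Of its 2189 exon bases, 14.2% belonged to no other gene of the table, and 81.7% were shared with ENSG00000264772, a gene on the same strand that had at most 2 counts in any library. Reads that lie in more than 1 gene were not counted by the authors' options, so the level of CD68 cannot be read from these counts, nor can its call without IFN-γ (-1.98, SE 0.55, adjusted p = 0.0034). The share of exon bases of no other gene was 69.1% in CLN3, 78.8% in MAN2B1, 83.3% in ATP6V0D2 and 83.7% in HEXA, and at least 90.0% in the other members.

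**Figure D4:**
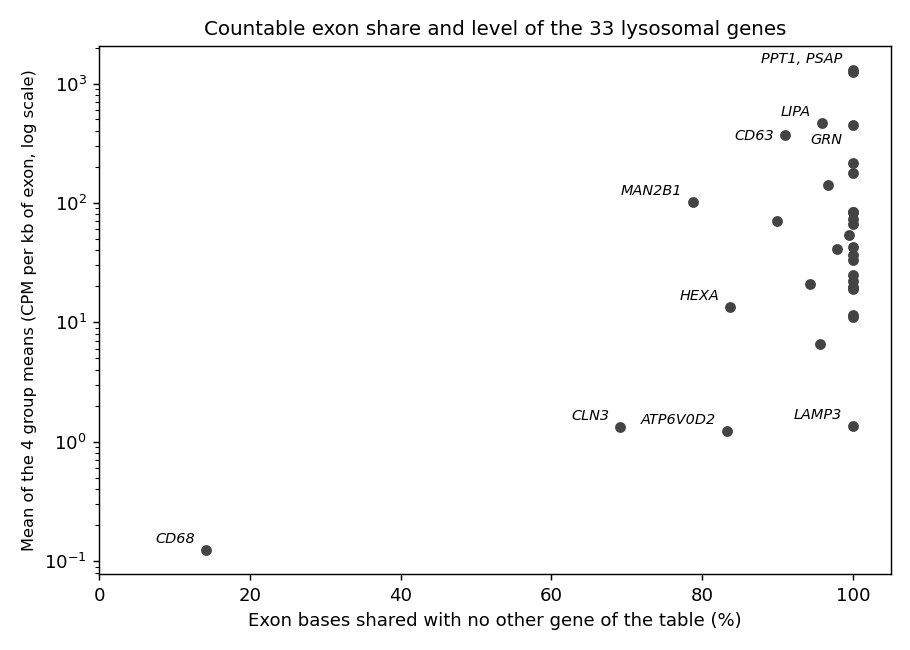
Level (y axis, log scale, mean of the 4 group means in CPM per kb of exon) of the 33 lysosomal genes against the share of their exon bases that no other gene of the table covers (x axis, percent). CD68, at 14.2%, is the member with the lowest share and the lowest level, and PPT1 and PSAP, at 100%, are the highest.

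Other lysosomal genes outside the 33 were set beside them by list, and none of the lists was tested as a set. Of 25 tested further hydrolases and cofactors, 12 were higher and 7 lower in the knockout with IFN-γ, and 13 higher and 5 lower without. The acid nuclease gene DNASE2 was higher in both treatments (0.83, SE 0.04, adjusted p = 6.5e-18 with IFN-γ, and 0.83, SE 0.04, adjusted p = 4.2e-18 without). Of 15 tested further pump subunits, 8 were higher and 1 lower with IFN-γ, and 7 higher and 3 lower without, with ATP6V1B2 at 0.59 (SE 0.04, adjusted p = 4.5e-15) with IFN-γ. The 26 further membrane proteins were split, 8 higher and 9 lower with IFN-γ, and 9 higher and 11 lower without. The lowest of these was the metal transporter SLC11A1 (NRAMP1), at -3.16 with IFN-γ (SE 0.12, adjusted p = 7.4e-20) and -1.40 without (SE 0.09, adjusted p = 1.5e-14).

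Of 16 genes that sort enzymes to the lysosome, 7 were higher in the knockout and 3 lower with IFN-γ, and 9 higher and 2 lower without. The 2 mannose-6-phosphate receptor genes went opposite ways. M6PR was lower in both treatments (-0.40, SE 0.04, adjusted p = 1.1e-10 with IFN-γ, and -0.50, SE 0.04, adjusted p = 5.8e-13 without). IGF2R was higher in both (0.38, SE 0.03, adjusted p = 4.9e-11, and 0.12, SE 0.03, adjusted p = 0.0031). Of 19 genes of MTORC1 and nutrient sensing at the lysosome, 10 were higher and 2 lower with IFN-γ, and 5 higher and 5 lower without. Of 13 autophagy genes with CLEAR elements, 6 were higher and 0 lower with IFN-γ, among them MAP1LC3B (0.46, SE 0.04, adjusted p = 9.3e-11) and SQSTM1 (0.40, SE 0.05, adjusted p = 1.1e-08), and 5 higher and 1 lower without. The cathepsin and legumain list, which the 33 genes leave out, had 5 of 14 higher and 5 lower with IFN-γ, and 6 higher and 6 lower without, and LGMN was the lowest in both (-2.28, SE 0.08, adjusted p = 7.7e-21, and -3.40, SE 0.10, adjusted p = 2.2e-22).

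With IFN-γ over without it, 14 of the 26 further membrane proteins were higher and 4 lower in the knockout, and 15 higher and 5 lower in the wild type, with the cholesterol transporter gene NPC1 among the highest (1.61, SE 0.04, adjusted p = 6.7e-25, and 1.10, SE 0.04, adjusted p = 1.6e-20). Of the 15 further pump subunits, 10 were higher and 3 lower in the knockout, and 8 higher and 4 lower in the wild type. ATP6V1B2 rose by 1.19 in the knockout (SE 0.04, adjusted p = 5.2e-24) and 0.73 in the wild type (SE 0.04, adjusted p = 3.5e-18), and ATP6V1C2, another cytosolic subunit, was lower (-1.94, SE 0.07, and -1.53, SE 0.07). Further hydrolases were split, 10 higher and 9 lower in the knockout and 10 and 10 in the wild type. In the MTORC1 list the TFEB-family relative TFEC rose most, by 1.52 in the knockout (SE 0.06, adjusted p = 2.4e-21) and 1.41 in the wild type (SE 0.06, adjusted p = 3.0e-20). These list counts are after TMM scaling and were not run under the other scalings. Of all genes, 29.2% were higher and 31.8% lower with IFN-γ in the knockout, and 28.6% and 27.9% in the wild type. Among genes averaging at least 20 CPM the shares were 46.4% and 29.2% in the knockout, and 44.8% and 26.7% in the wild type.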

How the data were processed

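The deposited table held raw counts per gene for 12 libraries, made by the authors with featureCounts 2.0.3, per the file headers, on hg38, with mates counted separately, no strand option and reads in more than 1 gene left out. The submitters' processing notes also name fastp 0.23.2 and STAR 2.7.10b. The kit was stranded, per the labels' protocols, so reads of overlapping and antisense genes were not told apart. Library totals were 23616738 to 29426415.

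Genes were filtered with filterByExpr (17119 kept), scaled by TMM and fitted with edgeR 4.0.16 (quasi-likelihood, 1 fit of the 4 groups, no block), with Benjamini-Hochberg adjustment over all tested genes in each of 5 comparisons and a threshold of 0.05. The SE is the log2 fold change over the root of the F statistic. The fit was tested on simulated data. Promoters came from RefSeq tables (GRCh38.p14), matched by symbol, and gene and exon bounds from the count table. Neighbours were the 10 tested genes on each side. All 33 members are described, and of each further list only genes among the 2 highest or 2 lowest called in a comparison were named. The members, lists and motifs were chosen with earlier results of these data known. Alternatives were DESeq2 1.42.0, limma-voom (limma 3.58.1), other scalings and filters, the compared libraries alone, halved counts, a replicate block and leaving out each library.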

Additional observations from a re-analysis of the deposited data

Results flagged for a closer look

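For 9 of the lysosomal genes the response to IFN-γ differed between the genotypes by edgeR's test of the difference, given as the log2 response in the knockout minus that in the wild type. It was 2.36 for LAMP3 (adjusted p = 0.0014), 0.32 for ATP6V1H (0.0037), 0.28 for GM2A (5.5e-05), 0.25 for ATP6AP1 (0.0013), 0.19 for LIPA (0.02), 0.17 for ASAH1 (0.032) and 0.15 for CD63 (0.02). It was -0.21 for GAA (0.015) and -0.21 for ARSA (0.044). The same test called 15.5% of all genes. Among genes averaging at least 20 CPM it called 24.5%, against 8 of the 29 members at that level. The value of LAMP3 rests on 8 counts in KO without IFN-γ and 25 in WT without. The groups had 3 libraries each, and single libraries were examined only by leaving each out in turn. The calls of GAA, CD63, LIPA, ASAH1 and ARSA were then lost for at least 1 library left out.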

How the results depend on the processing

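Of 165 member results, 114 were called, and 76 of these kept their call under every alternative run for them. limma-voom and the replicate block changed none of the 114 calls. The labels do not say what libraries of the same number share. Over 10747 genes, deviations of libraries of the same number correlated at -0.149 to 0.252 and of different numbers at -0.175 to 0.24. With 3 libraries per group, whose deviations from the group mean depend on each other, these values cannot decide whether a number marks a shared culture or day. With the replicate block 7983, 8500, 10375, 9600 and 2588 genes were called in the 5 comparisons, against 8072, 8583, 10456, 9666 and 2647, and members stayed at 21 higher and 5 lower, 21 and 6, 18 and 7, 21 and 6, and 7 and 2.

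Library totals alone called 2787 genes higher and 9141 lower with IFN-γ in the knockout (members 9 and 17), and 2767 and 8260 in the wild type (members 8 and 14), and for the difference of responses 4 members larger and 6 smaller. DESeq2 and RLE scaling each left 1 member smaller there, and leaving out 1 library left 4 to 7 larger and 0 to 3 smaller, with 4 larger without WT with IFN-γ library 2 or WT without IFN-γ library 3, and 0 smaller without KO with IFN-γ library 2 or 3. In that comparison the share of calls that were larger was 59.1% without KO with IFN-γ library 2, against 49.2%.

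Signs turned with library totals alone as follows. Knockout over wild type with IFN-γ gave PSAP -0.05 and LIPA -0.01, and without it CLN3 -0.01 and GAA -0.02. IFN-γ in the knockout gave GLB1 -0.02, MANBA -0.04, TFEB -0.24, TPP1 -0.21, PSAP -0.11, GALC -0.21, GRN -0.19, GAA -0.21, MAN2B1 -0.24 and ARSA -0.06. IFN-γ in the wild type gave MANBA -0.13, TFEB -0.01, ATP6AP1 -0.08, ATP6V1H -0.02, TPP1 -0.15, GALC -0.19, ATP6V0D1 -0.19, GRN -0.05 and MAN2B1 -0.07, and the difference of responses PPT1 -0.03, ARSB -0.02 and GALC -0.02. Upper-quartile scaling turned TFEB -0.06, TPP1 -0.03, GALC -0.03, GRN -0.02, GAA -0.03 and MAN2B1 -0.06 in the knockout, and TPP1 -0.01, GALC -0.05 and ATP6V0D1 -0.06 in the wild type. DESeq2 and RLE scaling each gave TPP1 0.01 in the difference of responses. Leaving out 1 library turned uncalled values, which then ran from -0.07 to 0.03 for TFEB with IFN-γ and from -0.04 to 0.06 for GAA and -0.02 to 0.08 for CLN3 without it between the genotypes, and from -0.1 to 0.01 for MCOLN1 with IFN-γ in the wild type. In the difference of responses they ran from -0.04 to 0.03 for TPP1, -0.05 to 0.06 for PPT1, -0.03 to 0.08 for GALC and -0.48 to 0.34 for ATP6V0D2. The cause was not tested. Counts limited LAMP3 without IFN-γ, CD68 and ATP6V0D2 with IFN-γ.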
